A study of Rattus norvegicus with 12 samples.

Results

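The genes that encode glutamate and GABA receptor subunits were examined in RNA from rat hypothalamic tissue around the paraventricular nucleus (PVH). Members were all genes whose symbols belong to the AMPA, kainate, NMDA and metabotropic glutamate receptor families or to the GABA-A and GABA-B receptor families, with a mean over the 12 libraries of at least 0.5 CPM, a gene's count scaled to the total of its library. Of 17310 genes listed, 45 carried such a symbol and 41 passed this level: 24 glutamate receptor genes and 17 GABA receptor genes. Every rat was a wild-type male of the Wistar strain aged 12 weeks, and each group had 2 libraries. The groups were rats given high Cort for 12 days ("high Cort"), rats 7 days after adrenalectomy ("ADX"), adrenalectomised rats given Cort as a supplement ("supplemented ADX"), rats sampled 1 h or 3 h after acute Cort ("1 h acute" and "3 h acute"), and rats with sham adrenalectomy ("sham"). The labels do not say whether the rats given acute or high Cort had their adrenal glands, nor whether a library came from 1 animal or a pool, so p-values speak only for the spread among these libraries, and that spread may be technical. Cort is the labels' own short form. The series title names glucocorticoid-responsive transcripts as the subject, and the comparisons below ask which receptor genes differed with the glucocorticoid state.

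Glutamate is the main excitatory transmitter of the brain and GABA the main inhibitory one. AMPA, kainate and NMDA receptors are cation channels assembled from several subunits, GABA-A receptors are chloride channels built as rings of subunits, and the metabotropic glutamate and GABA-B receptors act through G proteins. In the PVH, neurons that release corticotropin-releasing hormone receive strong GABA and glutamate input, and glucocorticoids feed back on these neurons. Most subunits are shared by many brain regions, while a few, such as the GABA-A subunits alpha 4 and delta, are known for a strong presence in the thalamus, which lies next to the dissected tissue.

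Library totals ran from 17674159 to 36249006 fragments assigned to genes. The PVH regulators Sim1 and Otp were present in every library, at 36.5 to 54.0 and 21.7 to 41.0 CPM, and so were the PVH peptide genes Avp, Oxt and Crh. Markers of the neighbouring thalamus were present too and differed between libraries. Their score, the mean log2 CPM of 12 marker genes, was 6.54 and 6.49 in high Cort libraries, 5.79 and 5.94 in ADX libraries, 5.90 and 5.87 in supplemented ADX libraries, 5.54 and 4.71 in 1 h acute libraries, 5.33 and 5.46 in 3 h acute libraries, and 6.05 and 6.66 in sham libraries. The summed level of these markers ran from 918.1 CPM in replicate 2 of the 1 h acute group to 3012 CPM in replicate 2 of the sham group. Those libraries stand apart from their own partners, so for the acute groups against sham, counts of called members are also given without them. The sham, high Cort and ADX files came from 1 processing run of the authors and the other 3 groups from another. Comparisons of either acute group with sham, and of supplemented ADX with ADX, therefore also compare the runs. In them, group and run cannot be told apart. In the tests below, a gene is called when its adjusted p from edgeR's quasi-likelihood test is under 0.05, adjusted by Benjamini and Hochberg's method over 12856 genes, all 41 members among them.

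Levels of different genes were set side by side in FPKM, which divides by transcript length, in the sham libraries. The GABA-B subunit Gabbr1, which binds GABA, led with 529 and 553 FPKM, above its partner Gabbr2, which couples to the G protein, at 163 and 187 FPKM. Grin1, the obligatory NMDA receptor subunit, followed Gabbr1 with 184 and 193 FPKM, overlapping Gabbr2. Among GABA-A subunits, the beta subunit Gabrb2 had 97.4 and 117 FPKM. In all, 6 members averaged at least 100 FPKM, and of these Grin1 alone is a glutamate receptor gene.

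The AMPA subunit Gria1 had 93.1 and 88.6 FPKM, which is the highest mean of its class (90.8 FPKM), with Gria2, the subunit that keeps calcium out of the channel, at 83.2 FPKM. Kainate subunits were led by Grik5 at 54.5 FPKM, and metabotropic receptors by Grm5 of group I at 53.5, Grm4 of group III at 40.5 and Grm3 of group II at 36.1 FPKM. Of the delta, epsilon, theta and rho subunits, Gabrd was highest, at 16.4 and 26.5 FPKM, followed by Gabrq at 17.0 FPKM on average. Altogether 36 of 41 members averaged at least 10 FPKM. The exceptions were Grm8 (8.97), Gabre (6.71), Grin3b (1.38), Grm6, known from retinal bipolar cells (1.07), and Gabrr1, a rho subunit known from the retina (0.167). The ranking is coarse: in 19 of 40 neighbouring pairs in this order, the sham libraries of both genes overlapped. Just inside the level that defines members were Gabrr1 at 0.664 and Grin3b at 4.62 mean CPM. Just outside it were Gabrr2 at 0.210 and Gabrr3 at 0.177 mean CPM. Gabrp (0.0700) and Gabra6, known from cerebellar granule cells (0.0107), were lower still.

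**Figure D1:**
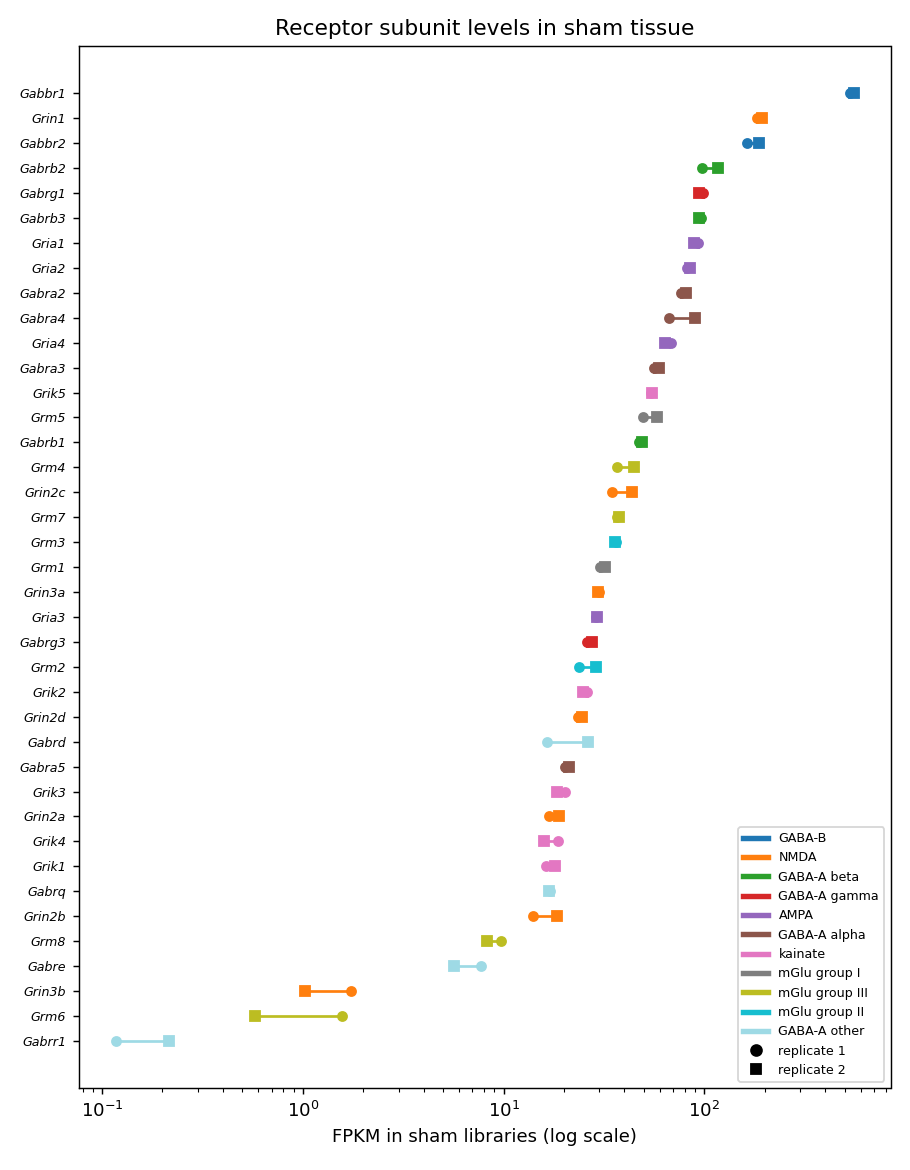
Levels of 39 receptor subunit genes in sham tissue, in FPKM on a log axis, with 1 point for each of the 2 libraries and colours for the receptor class. Gabbr1 stands above all others at 529 and 553 FPKM, and Gabrr1 is lowest with a mean of 0.167 FPKM.

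The make-up of the fast channels was given as the share of each subunit in the summed FPKM of its class. AMPA receptor RNA was split nearly the same way in every library: Gria1 held 33.2 to 37.8%, Gria2 30.1 to 32.0%, Gria4 22.3 to 25.0% and Gria3 9.7 to 11.1%. Grin1 held 58.7 to 63.1% of NMDA subunit RNA. The alpha subunits differed more. Gabra4, an alpha subunit that pairs with delta outside synapses, held 23.3 and 23.8% in high Cort libraries, 14.8 and 16.3% in ADX libraries, 16.3 and 16.0% in supplemented ADX libraries, 13.7 and 8.4% in 1 h acute libraries, 13.5 and 13.0% in 3 h acute libraries, and 18.8 and 23.5% in sham libraries. The share of Gabra2 ran the other way, from 20.0% in replicate 1 of high Cort to 29.4% in replicate 2 of the 1 h acute group. Shares in a class sum to a fixed total, so a lower Gabra4 raises the shares of the other alpha subunits. In these libraries Gabra2 had 77.7 and 83.7 FPKM, and Gabra4 had 90.5 and 23.9 FPKM. Among beta subunits, Gabrb2 held 45.9 and 46.3% in high Cort libraries, 35.4 and 30.4% in 1 h acute libraries, and 40.4 and 44.9% in sham libraries.

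**Figure D2:**
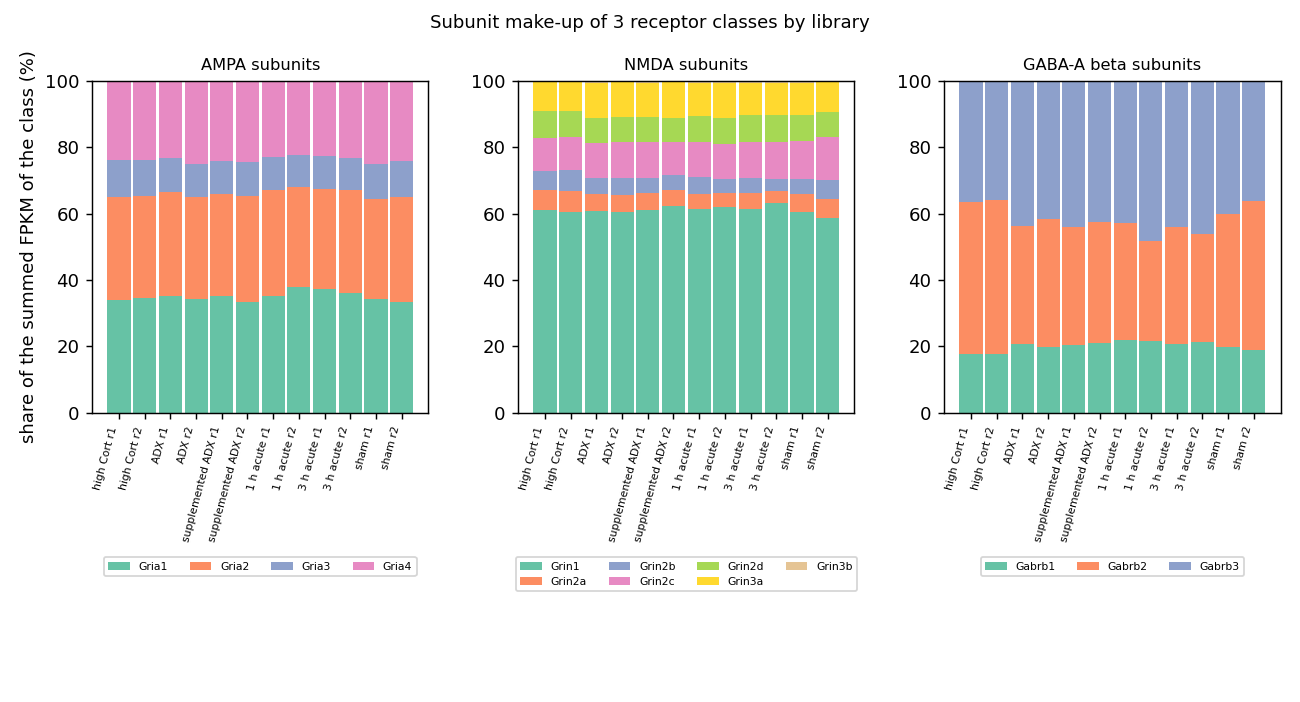
Share of each subunit in the summed FPKM of its class, in percent, as stacked bars for the 12 libraries, for AMPA, NMDA and GABA-A beta subunits. AMPA shares are nearly level, while Gabrb2 lies between 30.4% (replicate 2 of 1 h acute) and 46.3% (replicate 2 of high Cort).

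Across all 12 libraries, Gria2 was the steadiest member, with a range of 0.14 on the log2 CPM scale, from 540 CPM in a 3 h acute library to 596 CPM in a 1 h acute library. Grin3a followed with a range of 0.18, then Gria4 and Grin1, each with 0.19. At the other end, Gabrd spanned 3.06 on the log2 scale, Grm6 2.095, Gabra4 2.00 and Grm4 1.33. Grm6 was low throughout, between 2.49 CPM in replicate 2 of sham and 10.9 CPM in replicate 2 of 1 h acute, and was called in none of the 9 comparisons.

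**Figure D3:**
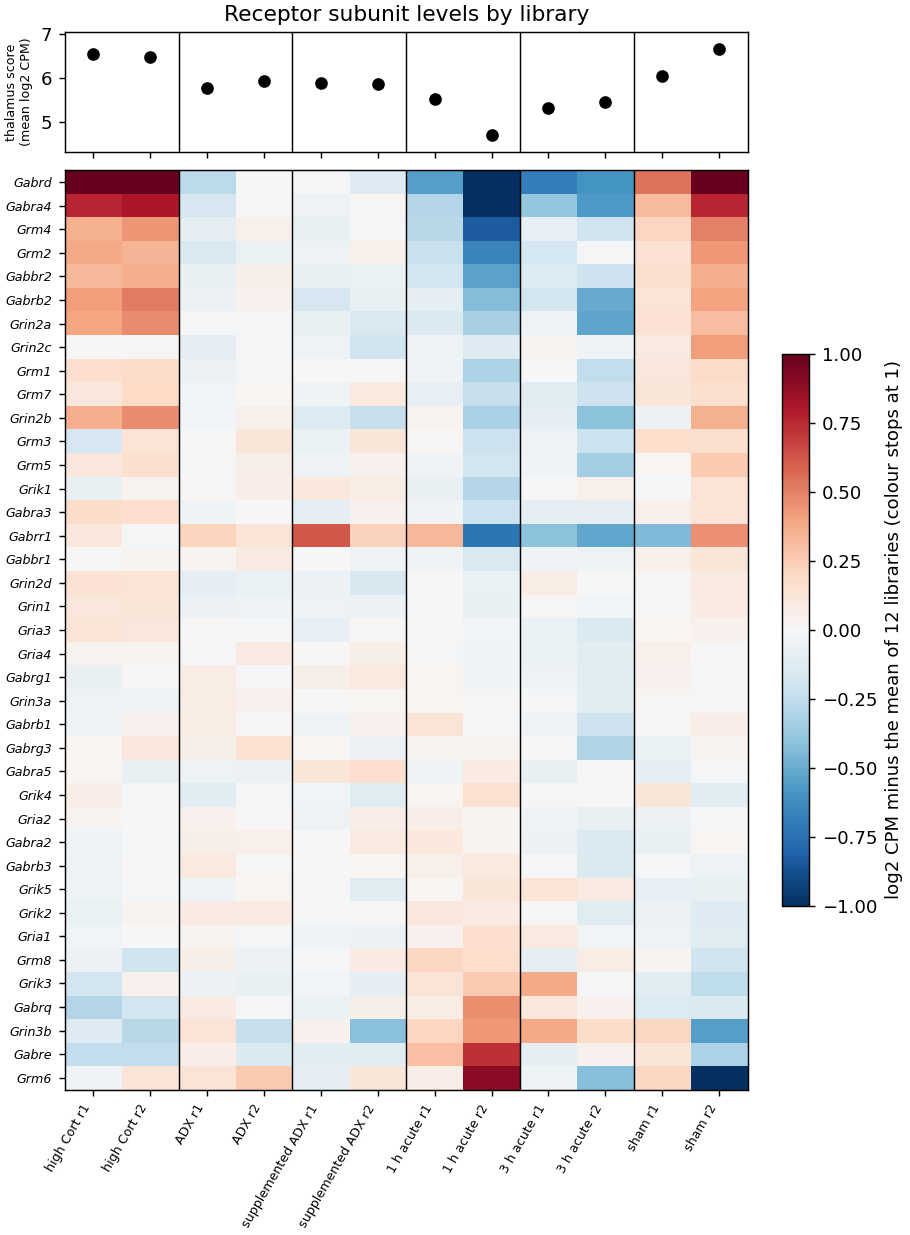
Log2 CPM of 39 members minus their means over the 12 libraries, as colour, with the thalamus score (mean log2 CPM of 12 markers) of each library above. Members are ordered down the page by their difference between 1 h acute and sham, the most negative at the top, and colour stops at 1. Gabrd, Gabra4, Grm4 and Grm2 are high in both high Cort libraries and in replicate 2 of sham, and lowest in replicate 2 of 1 h acute, where Gabre and Gabrq are highest.

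The largest differences were between 1 h acute and sham, groups from different processing runs. Here 15 of 41 members were called, or 36.6%, against 12.8% of all genes tested. Of these, 11 were lower (7.2% of all genes were lower) and 4 were higher (5.56% of all genes were higher). The median absolute log2 difference was 0.23 for members and 0.12 for all genes, and the median signed log2 difference was -0.04 for members and -0.0026 for all genes. Members whose libraries did not overlap between the groups numbered 31, with 12 above and 19 below sham, while 56.5% of all genes were separated in this way, 27.5% above and 29.1% below.

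Gabrd, the delta subunit of GABA-A receptors outside synapses, changed most. It had 12.2 and 4.99 CPM in 1 h acute libraries, against 26.0 and 42.2 CPM in sham libraries, a log2 difference of -1.88 ± 0.36 (SE; adjusted p = 0.0226). The libraries did not overlap, and replicate 2 of 1 h acute was the lowest and replicate 2 of sham the highest. Gabra4 had 71.5 and 38.4 CPM in 1 h acute libraries, against 109 and 149 CPM in sham libraries (log2 difference -1.20 ± 0.28, adjusted p = 0.0405), with the same libraries at the extremes. The alpha 3 subunit gene Gabra3 had 84.4 and 74.7 CPM in 1 h acute libraries, against 89.5 and 94.6 CPM in sham libraries (-0.20 ± 0.06, adjusted p = 0.0402). None of these genes' libraries overlapped between the groups. In bulk tissue, fewer cells of a type and less RNA per cell cannot be told apart.

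Both GABA-B subunits were lower. Gabbr2 had 681 and 538 CPM in 1 h acute libraries, against 868 and 999 CPM in sham libraries (-0.61 ± 0.11, adjusted p = 0.0117). Gabbr1 had 2127 and 1959 CPM in 1 h acute libraries, against 2250 and 2365 CPM in sham libraries (-0.18 ± 0.05, adjusted p = 0.0219). Neither gene's groups overlapped. Of the GABA-A genes that were higher, Gabre, the epsilon subunit, had 24.7 and 33.2 CPM in 1 h acute libraries, against 21.8 and 16.1 CPM in sham libraries (0.59 ± 0.16, adjusted p = 0.042). Gabrq, the theta subunit, which like epsilon is known from the hypothalamus and brainstem, had 34.0 and 44.4 CPM in 1 h acute libraries, against 29.3 and 29.1 CPM in sham libraries (0.41 ± 0.10, adjusted p = 0.0232). Again replicate 2 of 1 h acute lay farthest from sham. No beta subunit gene was called; Gabrb2 came nearest, at -0.51 ± 0.15 (adjusted p = 0.0635).

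Among glutamate receptors, the metabotropic genes Grm4, Grm2 and Grm7, presynaptic receptors that lower transmitter release, were lower. Grm4 had 80.8 and 55.1 CPM in 1 h acute libraries, against 114 and 139 CPM in sham libraries (-0.88 ± 0.17, adjusted p = 0.0226). Grm2 had 81.8 and 60.3 CPM in 1 h acute libraries, against 105 and 129 CPM in sham libraries (-0.71 ± 0.15, adjusted p = 0.0226). Grm7 had 104 and 93.9 CPM in 1 h acute libraries, against 120 and 123 CPM in sham libraries (-0.29 ± 0.06, adjusted p = 0.00851, the smallest of the 15). No library of these 3 genes crossed over between groups. Grin2c, an NMDA subunit known from cerebellum, thalamus and astrocytes, had 135 and 127 CPM in 1 h acute libraries, against 148 and 186 CPM in sham libraries (-0.35 ± 0.09, adjusted p = 0.039).

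Of the kainate and AMPA genes, Grik1, Grik2 and Gria1 were called. Grik1 had 47.7 and 41.0 CPM in 1 h acute libraries, against 49.8 and 55.1 CPM in sham libraries (-0.23 ± 0.07, adjusted p = 0.0463). Grik2 had 84.6 and 83.2 CPM in 1 h acute libraries, against 75.5 and 72.1 CPM in sham libraries (0.19 ± 0.05, adjusted p = 0.0321), and Gria1 had 268 and 293 CPM in 1 h acute libraries, against 252 and 241 CPM in sham libraries (0.19 ± 0.05, adjusted p = 0.0261). So Grik1 was lower while Grik2 and Gria1 were higher, and for each of the 3 genes the libraries of 1 h acute and sham did not overlap. Grik3, a kainate gene, had 82.8 and 90.8 CPM in 1 h acute libraries, against 69.8 and 63.6 CPM in sham libraries (0.38 ± 0.12, adjusted p = 0.076), without overlap and not called. The other 3 AMPA genes were not called, and Grin2c was the only NMDA gene called.

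**Figure D4:**
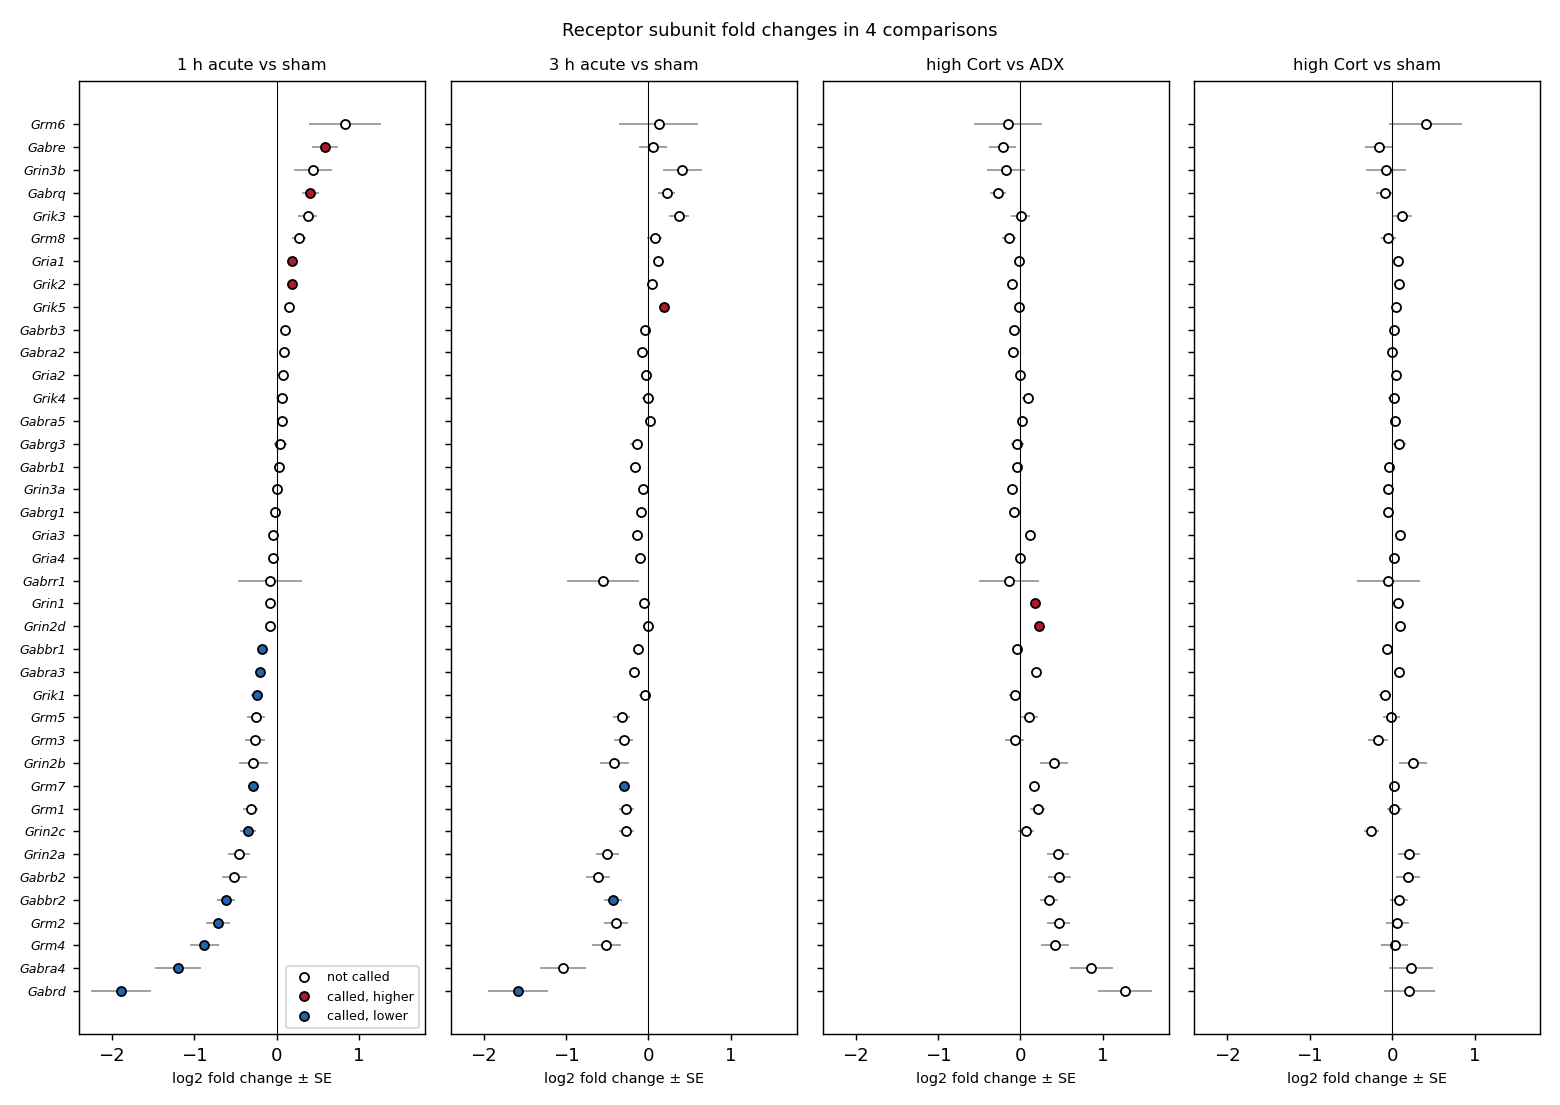
Log2 fold change of 39 members with the standard error in 4 comparisons, ordered by the value in 1 h acute against sham, with filled points for called genes. Gabrd is lowest in both acute comparisons, at -1.88 and -1.58, and highest in high Cort against ADX, at 1.27, where it was not called.

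The thalamus markers moved with these differences. All 12 were lower in 1 h acute than in sham, 9 of them called, with a median log2 difference of -1.14, and none was at 0 in these libraries. Of 15 pan-neuronal markers, 7 were called lower, with a median of -0.16. Of 16 markers of the PVH and neighbouring hypothalamus, 5 were called higher and 1 lower, with a median of 0.37. Libraries of 1 group also differ in the score. Between the sham libraries, replicate 2, with the score higher by 0.60, had Gabrd higher by 0.70, Gabra4 by 0.45, Grm2 and Grm4 by 0.29 each and Gabbr2 by 0.20 on the log2 scale, and Gabre lower, at -0.44. Between the 1 h acute libraries, replicate 1, with the score higher by 0.82, had Gabrd higher by 1.29, Gabra4 by 0.90, Grm4 by 0.55, Grm2 by 0.44 and Gabbr2 by 0.34, and Gabre and Gabrq lower, at -0.43 and -0.39. In the other 4 pairs the scores differed by 0.031 to 0.152. In the library with the higher score, 24 members were higher and 17 lower in ADX, 6 and 35 in 3 h acute, 13 and 28 in high Cort, and 16 and 25 in supplemented ADX. Gabrd differed by 0.263 in ADX, 0.096 in 3 h acute, 0.011 in high Cort and 0.116 in supplemented ADX. Gabra4 differed by 0.17 in ADX, -0.19 in 3 h acute, -0.043 in high Cort and -0.062 in supplemented ADX. The part of the score in these differences between libraries of 1 group was not tested.

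With the score as a covariate, the log2 difference of 1 h acute against sham was -0.40 ± 0.16 for Gabrd, -0.15 ± 0.17 for Gabra4, -0.21 ± 0.12 for Grm4, -0.16 ± 0.09 for Gabbr2, -0.09 ± 0.09 for Grm2 and -0.14 ± 0.10 for Grm7. Each of these 6 had an adjusted p of 0.996, and 0 of 41 members and 1 of all genes were called (edgeR). The score was lower in both 1 h acute libraries than in both sham libraries, and it also differed within these groups. With 2 libraries per group, this fit does not separate the part of the score from that of condition. Over the 12 libraries, the Pearson correlation of log2 CPM with the score was 0.991 for Gabrd, 0.985 for Gabra4, -0.018 for Gria2 and -0.931 for Gabrq. Without replicate 2 of sham, 0 of 41 members were called. Without replicate 2 of 1 h acute, 3 were called, Gabbr2, Grm2 and Grm4, whereas 16 were called without replicate 1 of either group. DESeq2 did not call Gabra3, Grik1 and Grik2, Gabre and Grin2c were not called without the filter on low counts, and a fit of these 4 libraries alone called none.

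**Figure D5:**
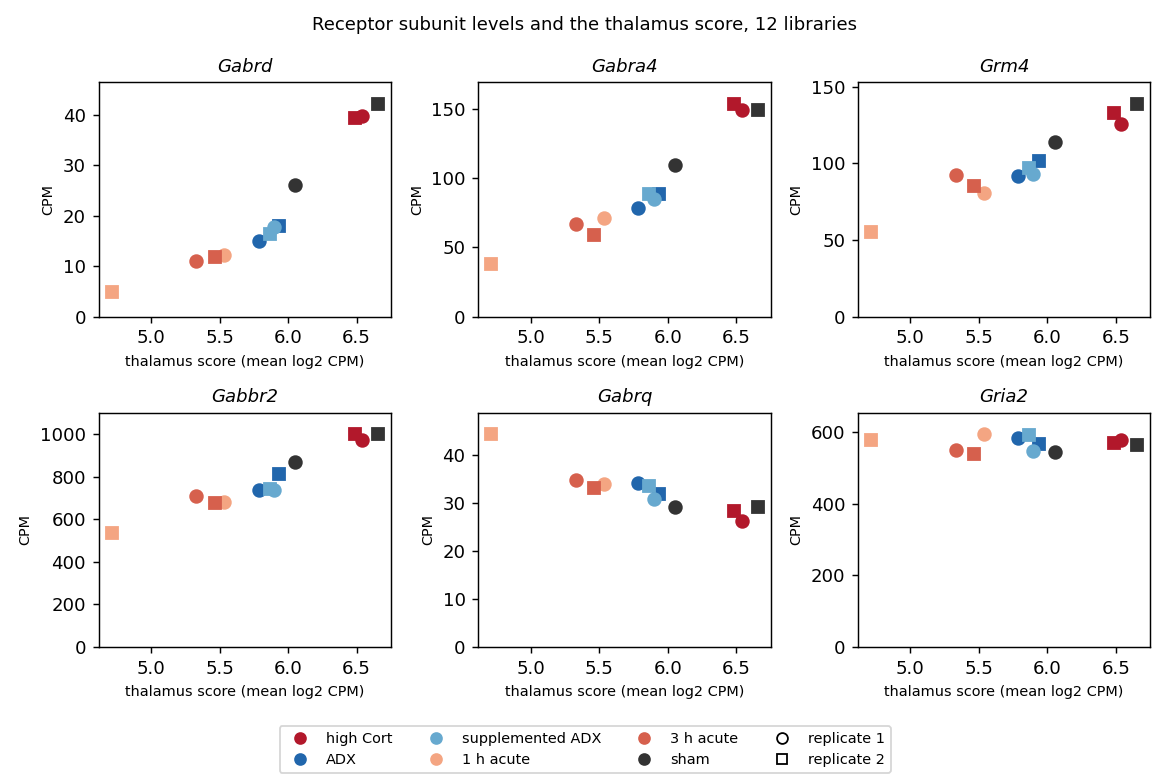
CPM of 6 members in the 12 libraries against the thalamus score (mean log2 CPM of 12 markers), coloured by group, with circles for replicate 1 and squares for replicate 2. Gabrd, Gabra4, Grm4 and Gabbr2 are high where the score is high, Gabrq is low there, and Gria2 lies between 540 and 596 CPM at every score.

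At 3 h after acute Cort, 5 of 41 members were called against sham, or 12.2%, compared with 7.98% of all genes; 4 were lower (4.57% of all genes) and 1 was higher (3.41%). The median log2 difference was -0.10 for members and -0.0035 for all genes. Gabrd had 11.0 and 11.8 CPM in 3 h acute libraries, against 26.0 and 42.2 CPM in sham libraries (-1.58 ± 0.36, adjusted p = 0.0487). Gabbr2 had 709 and 675 CPM in 3 h acute libraries, against 868 and 999 CPM in sham libraries (-0.43 ± 0.11, adjusted p = 0.0478). These genes were low in both 3 h acute libraries, whose values lay closer together than those of the 1 h acute libraries. Grm7 had 102 and 95.5 CPM in 3 h acute libraries, against 120 and 123 CPM in sham libraries (-0.30 ± 0.06, adjusted p = 0.0113). The one gene that was higher was Grik5, the high-affinity kainate subunit, with 228 and 221 CPM in 3 h acute libraries, against 196 and 198 CPM in sham libraries (0.19 ± 0.05, adjusted p = 0.0335). The libraries of these genes did not overlap between groups, nor did those of 25 members in all, 4 above and 21 below, against 53.1% of all genes, 25.4% above and 27.6% below.

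Gabrd, Gabbr2 and Grm7 were thus called lower at both 1 h and 3 h, in comparisons that share the sham libraries. Gabra4 had a log2 difference of -1.04 ± 0.28 at 3 h (adjusted p = 0.0777) and was not called. The 12 thalamus markers were again all lower in 3 h acute than in sham, 1 of them called, with a median log2 difference of -0.94. With the score as a covariate, Gabrd stood at -0.27 (adjusted p = 0.764) and Grm7 at -0.18 (adjusted p = 0.761), and 0 of 41 members were called. Without replicate 2 of sham, none was called; without replicate 1 of sham, 8 were, and without replicate 2 of 3 h acute, 1 was, the kainate subunit Grik3. Gabrd and Gabbr2 were not called with DESeq2's size factors or without the filter on low counts. Grik5 lost its call whichever of the 4 libraries was left out. It also lost it with the replicate block, with either marker score and in a fit of these libraries alone. Its log2 difference ran from 0.11 to 0.21 over these alternatives.

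High Cort against ADX gave 3 called members, all higher, or 7.32%, against 5.77% of all genes called, 3.5% higher and 2.27% lower. Grin1 had 749 and 751 CPM in high Cort libraries, against 662 and 666 CPM in ADX libraries (0.17 ± 0.04, adjusted p = 0.0205). Grin2d, an NMDA subunit with slow kinetics, had 132 and 131 CPM in high Cort libraries, against 112 and 114 CPM in ADX libraries (0.22 ± 0.05, adjusted p = 0.0141). For both genes the libraries of a group lay close together and the groups did not overlap. In RefSeq's annotation of the rat assembly GRCr8, Grin1 overlaps Lrrc26 and Grin2d overlaps Grwd1. Without strand information, reads in such shared stretches cannot be told apart. The overlaps were not checked in rn6, the build named for the counts.

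Larger differences were not called here. Gabrd had 39.7 and 39.4 CPM in high Cort libraries, against 14.9 and 17.9 CPM in ADX libraries (1.27 ± 0.32, adjusted p = 0.0782), and Gabra4 had 149 and 154 CPM in high Cort libraries, against 78.3 and 88.1 CPM in ADX libraries (0.86 ± 0.27, adjusted p = 0.129). Grin2a, an NMDA subunit typical of mature synapses, had 91.7 and 96.8 CPM in high Cort libraries, against 68.7 and 68.8 CPM in ADX libraries (0.46 ± 0.13, adjusted p = 0.088). All 3 genes separated the groups. The 12 thalamus markers were also all higher in high Cort than in ADX, none of them called, with a median log2 difference of 0.58, and 3 of 15 pan-neuronal markers were called higher. With the thalamus score as a covariate the called genes stood at 0.11 ± 0.05 for Grin1 (adjusted p = 0.356) and 0.17 ± 0.06 for Grin2d (adjusted p = 0.262), and 0 of 41 members were called. None of the 3 was called when any one of the 4 libraries was left out. In all, 27 members did not overlap between groups, 18 above and 9 below, against 53.8% of all genes, 29.7% above and 24.1% below.

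Against sham, neither chronic state gave a called member. In high Cort against sham, edgeR called 0 of 41 members, DESeq2 called 0, and 1 had an unadjusted p under 0.05. Of all genes, edgeR called 0.871%, and 8.36% had an unadjusted p under 0.05. The member under 0.05 unadjusted was Grin2c, with 139 and 140 CPM in high Cort libraries, against 148 and 186 CPM in sham libraries (-0.25 ± 0.09, adjusted p = 0.434). Next was the AMPA subunit Gria3, at 0.09 ± 0.04 (adjusted p = 0.646). In ADX against sham, edgeR called 0 of 41, DESeq2 called 1, Grin2c, and 9 had an unadjusted p under 0.05. Of all genes, edgeR called 0.233%, and 12.8% had an unadjusted p under 0.05. Grik2 had 83.4 and 83.4 CPM in ADX libraries, against 75.5 and 72.1 CPM in sham libraries (0.18 ± 0.05, adjusted p = 0.173). Grin2c had 130 and 138 CPM in ADX libraries, against 148 and 186 CPM in sham libraries (-0.32 ± 0.09, adjusted p = 0.201). The sham libraries of Grin2c were far apart, and replicate 1, at 148 CPM, lay nearer to the high Cort and ADX libraries. With replicate 1 of sham left out, the log2 difference of Grin2c was -0.42 in high Cort and -0.47 in ADX. These values rest on replicate 2 of sham alone, the library with the highest thalamus score, 6.66. Members without overlap numbered 16 in high Cort against sham and 26 in ADX against sham, where 37.8% and 47.2% of all genes had none.

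Supplementing adrenalectomised rats with Cort gave no called member. In supplemented ADX against ADX, edgeR and DESeq2 each called 0 of 41, 1 had an unadjusted p under 0.05, and of all genes 0.0311% were called and 4.05% had such a p. That gene, Gabra5, an alpha subunit of receptors outside synapses, had the smallest p, at 0.20 ± 0.06 (adjusted p = 0.768), and Gabbr1 came next at -0.08 ± 0.05. Gabrd had 17.7 and 16.3 CPM in supplemented ADX libraries, against 14.9 and 17.9 CPM in ADX libraries, with full overlap. The thalamus scores of these 4 libraries lay between 5.79 and 5.94, and the 2 groups come from different processing runs. Members without overlap numbered 14, against 35% of all genes.

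Against supplemented ADX, the acute groups gave no called member either. In 1 h acute against supplemented ADX, edgeR called 0 of 41, DESeq2 called 1, Gabre, and 11 had an unadjusted p under 0.05, while of all genes 0.0467% were called and 14.7% had such a p. Grik1 had 47.7 and 41.0 CPM in 1 h acute libraries, against 54.1 and 52.8 CPM in supplemented ADX libraries (-0.26 ± 0.07, adjusted p = 0.164), and Gabre had 24.7 and 33.2 CPM in 1 h acute libraries, against 18.7 and 18.6 CPM in supplemented ADX libraries (0.61 ± 0.16, adjusted p = 0.174). Both genes separated the groups. Without replicate 1 of 1 h acute, 10 members were called, 3 higher and 7 lower; the remaining 1 h acute library is the one with the lowest thalamus score, 4.71. All 12 thalamus markers had negative differences in 1 h acute against supplemented ADX, with a median of -0.645 and 11 of them without overlap, and none was called. Their part in these values was not tested. In 3 h acute against supplemented ADX, edgeR and DESeq2 each called 0 of 41, and 9 had an unadjusted p under 0.05, while of all genes 0.00778% were called and 12.5% had such a p. The smallest p belonged to Grik5, at 0.17 ± 0.05 (adjusted p = 0.234), and Gabrg1, a gamma subunit, at -0.16 ± 0.05 (adjusted p = 0.24). Members without overlap numbered 24 in 1 h acute and 25 in 3 h acute against supplemented ADX, where 46.5% and 45.8% of all genes had none.

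Between the acute times, 3 h against 1 h, edgeR and DESeq2 each called 0 of 41 members, and 10 had an unadjusted p under 0.05, while of all genes 0.0233% were called and 10.6% had such a p. Gabra2 had 157 and 148 CPM in 3 h acute libraries, against 176 and 166 CPM in 1 h acute libraries (-0.17 ± 0.05, adjusted p = 0.244). Gabre had 18.7 and 20.7 CPM in 3 h acute libraries, against 24.7 and 33.2 CPM in 1 h acute libraries (-0.53 ± 0.16, adjusted p = 0.31). Both separated the times, as did 19 members in all, 4 above and 15 below, against 38.9% of all genes, 19.5% above and 19.4% below.

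Promoter sequences are shown for 4 GABA-A subunits with the largest differences in 1 h acute against sham, Gabrd and Gabra4 on the lower side and Gabre and Gabrq on the higher side; they and the motifs were chosen after the values were seen. Each sequence is the 250 bases before the start of the gene in RefSeq's rat assembly GRCr8, and capitals mark motif letters found on either strand.
Gabrd, chr5:171252710-171252959, minus strand: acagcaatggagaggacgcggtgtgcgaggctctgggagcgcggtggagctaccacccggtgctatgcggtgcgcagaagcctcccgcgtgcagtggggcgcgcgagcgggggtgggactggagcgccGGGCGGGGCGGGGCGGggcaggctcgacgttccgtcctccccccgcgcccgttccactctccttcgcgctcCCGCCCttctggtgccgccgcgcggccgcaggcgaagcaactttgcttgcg
Gabra4, chr14:36944497-36944746, plus strand: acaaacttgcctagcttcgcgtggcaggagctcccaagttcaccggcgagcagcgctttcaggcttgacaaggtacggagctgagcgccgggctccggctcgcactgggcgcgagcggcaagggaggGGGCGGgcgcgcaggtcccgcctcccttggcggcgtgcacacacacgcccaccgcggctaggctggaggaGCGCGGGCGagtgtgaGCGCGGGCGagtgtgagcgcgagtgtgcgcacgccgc
Gabre, chrX:155120722-155120971, minus strand: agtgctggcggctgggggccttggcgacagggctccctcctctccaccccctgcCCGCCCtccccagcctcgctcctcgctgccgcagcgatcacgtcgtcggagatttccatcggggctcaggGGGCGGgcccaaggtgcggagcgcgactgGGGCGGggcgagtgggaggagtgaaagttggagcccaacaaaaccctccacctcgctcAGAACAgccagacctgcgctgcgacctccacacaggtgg
Gabrq, chrX:155738186-155738435, plus strand: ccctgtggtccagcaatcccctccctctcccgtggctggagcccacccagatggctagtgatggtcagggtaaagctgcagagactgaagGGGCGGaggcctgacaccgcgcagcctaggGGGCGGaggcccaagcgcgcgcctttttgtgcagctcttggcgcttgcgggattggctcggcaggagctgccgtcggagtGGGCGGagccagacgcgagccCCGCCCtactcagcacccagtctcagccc
The motifs searched were the short form of the glucocorticoid response element (AGAACA), the full element (AGAACA, any 3 bases and TGTTCT, which contains the short form), the cAMP response element (TGACGTCA), the Sp1 box (GGGCGG) and the EGR box (GCGNGGGCG, which can share letters with the Sp1 box). Gabrd had 4 Sp1 boxes, 3 of them side by side, Gabra4 had 1 Sp1 box and 2 EGR boxes, Gabre had 3 Sp1 boxes and 1 glucocorticoid short form, and Gabrq had 4 Sp1 boxes. All 4 windows are rich in G and C, at 74.0, 71.6, 69.6 and 68.0% in the order printed, against a median of 52.0% over 27457 promoters. Of the 27 members with a promoter entry, 11 had an Sp1 box, 3 a glucocorticoid short form, 2 an EGR box, and none a full glucocorticoid element or a cAMP response element. Over all promoters these shares were 32.4%, 17.1%, 4.53%, 0.00364% and 1.7%. A match is only a description of these letters and says nothing about binding.

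Many GABA-A genes are neighbours in the genome, and neighbours had unlike values in 1 h acute against sham. On chromosome 14, Gabrb1, Gabra4, Gabra2 and Gabrg1 lie in a row in RefSeq's annotation; Gabra4 fell by 1.20 on the log2 scale, while Gabra2 stood at 0.10 ± 0.05 (adjusted p = 0.225), Gabrb1 at 0.03 ± 0.06 (adjusted p = 0.805) and Gabrg1 at -0.02 ± 0.05 (adjusted p = 0.789). On the X chromosome, Gabre and Gabrq, which were higher, flank Gabra3, which was lower.

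Other genes of these synapses were taken from 4 lists. For transmitter synthesis and transport, 4 of 21 genes were called in 1 h acute against sham, 1 higher and 3 lower, with a median log2 difference of 0.05. Of all genes, 12.8% were called, 5.56% higher and 7.2% lower. Slc17a6, the vesicular glutamate transporter VGLUT2, had 397 and 309 CPM in 1 h acute libraries, against 517 and 605 CPM in sham libraries (-0.66 ± 0.11, adjusted p = 0.00984). Slc32a1, the vesicular GABA transporter, had 263 and 321 CPM in 1 h acute libraries, against 202 and 150 CPM in sham libraries (0.73 ± 0.17, adjusted p = 0.039). So the vesicular transporter of glutamate was lower and that of GABA higher, without overlap. The neuronal glutamate transporter Slc1a1 was lower too (-0.33, adjusted p = 0.0152). At 3 h, Slc17a6 (-0.57, adjusted p = 0.0234) and Slc1a1 were lower, and no gene of this list was called higher. Slc32a1 had 325 and 257 CPM in 3 h acute libraries, against 202 and 150 CPM in sham libraries (0.73 ± 0.17, adjusted p = 0.0526), a difference of the same size as at 1 h that was not called. Fits without 1 library, chosen for these lists after seeing the data, gave other counts. At 1 h, 0 genes of the list were called without replicate 2 of sham and 1, Slc17a6 (-0.49 ± 0.08, adjusted p = 0.00708), without replicate 2 of 1 h acute. Slc32a1 then stood at 0.54 ± 0.16 (adjusted p = 0.153) and 0.59 ± 0.20 (adjusted p = 0.215). At 3 h, 0 were called without replicate 2 of sham.

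Among auxiliary subunits of ionotropic glutamate receptors, 6 of 17 were called at 1 h against sham, 2 higher and 4 lower (median -0.19), against 12.8% of all genes. Shisa7, counted in this list, was higher at 1 h (0.29, adjusted p = 0.00307) and at 3 h (0.30, adjusted p = 0.00348). Neto1, a kainate receptor partner, was higher at 1 h (0.37, adjusted p = 0.00808), and the AMPA receptor partner Cacng4 was lower at 1 h (adjusted p = 0.0158). Of 25 glutamate scaffold and trafficking genes, 11 were called at 1 h, 2 higher and 9 lower (median -0.12), among them Dlg2 (0.22, adjusted p = 0.0148), Dlgap4 (-0.29, adjusted p = 0.0202) and Dlgap2 (0.46, adjusted p = 0.0205), all part of the postsynaptic density. Homer1, a scaffold of group I metabotropic receptors, was lower at 3 h (-0.41, adjusted p = 0.00787). Of 19 GABA receptor scaffold and trafficking genes, 2 were higher and 2 lower at 1 h (median 0.04). At 3 h, 2 genes of this list were higher and 3 lower (median 0.04). Hap1, a trafficking partner of GABA-A receptors, was among the higher genes at 1 h (0.49, adjusted p = 0.00455) and at 3 h (0.42, adjusted p = 0.0112). It did not have the smallest p of the list at either time, and the genes called lower are only counted here. Without replicate 2 of sham, the counts at 1 h were 1 of the 17 auxiliary genes, 0 of the 25 glutamate scaffold genes and 1 of the 19 GABA scaffold genes. Without replicate 2 of 1 h acute they were 1, 0 and 2. Shisa7 (0.26 ± 0.06, adjusted p = 0.0393, and 0.27 ± 0.05, adjusted p = 0.0171) and Hap1 (0.40 ± 0.08, adjusted p = 0.0325, and 0.36 ± 0.06, adjusted p = 0.0085) were called in both of these fits, and Neto1, Cacng4, Dlg2, Dlgap2 and Dlgap4 in neither. At 3 h without replicate 2 of sham, Shisa7 was called (0.28 ± 0.06, adjusted p = 0.0377), Hap1 (0.34 ± 0.08, adjusted p = 0.0673) and Homer1 (-0.31 ± 0.09, adjusted p = 0.103) were not. Beside these lists stand the thalamus and pan-neuronal markers, of which 9 of 12 and 7 of 15 were called lower at 1 h, and 1 and 3 at 3 h. Their part in the lists' counts was not tested.

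In high Cort, the clearest of these genes was Glul, glutamine synthetase, the astrocyte enzyme that converts glutamate to glutamine. It had 1876 and 1953 CPM in high Cort libraries, against 1236 and 1352 CPM in ADX libraries (0.57 ± 0.07, adjusted p = 0.00139) and 1352 and 1236 CPM in sham libraries (0.57 ± 0.07, adjusted p = 0.00423). Both high Cort libraries lay above all ADX and sham libraries. Glud1, glutamate dehydrogenase, was lower in high Cort than in ADX (-0.19, adjusted p = 0.0173). Of the 25 glutamate scaffold genes, 6 were called in high Cort against ADX, 5 higher and 1 lower, where 3.5% of all genes were called higher and 2.27% lower, with Shank1 (0.23, adjusted p = 0.017) and Camk2b (0.18, adjusted p = 0.0231) higher and the adhesion gene Nlgn1 (-0.21, adjusted p = 0.0263) lower. With any 1 library of high Cort or ADX left out, 0 of these 25 genes were called, Glud1 lost its call (adjusted p = 0.09 to 0.114), and Glul stayed called, at 0.49 to 0.61. All 12 thalamus markers had positive differences in high Cort against ADX (median 0.58, none called), and so had 14 of 15 pan-neuronal markers (median 0.16, 3 called). Their part in the scaffold genes' values was not tested. Glul was the only gene of the 4 lists called in high Cort against sham, also without replicate 2 of sham (0.50 ± 0.09, adjusted p = 0.034).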

How the data were processed

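RNA of 12 libraries was sequenced on an Illumina HiSeq2000 from TruSeq version 2 libraries, per the labels; this kit does not mark strand. The submitters' processing notes name rn6 as the build and Cufflinks 2.2.1, TopHat2 2.1.1 and CASAVA 1.8.2 as tools. Settings and the annotation are not stated in the sources used. The deposited files give, per gene and library, estimated fragment counts, the same scaled between libraries of a run as a signal, and FPKM, per the file headers. The authors made them in 2 runs, and whether estimated counts are comparable across runs was not tested. The deposited scaled signal was not used in a test. After each library's own scale was removed, FPKM per CPM of members varied by at most 1.01 times between libraries. This describes the relative lengths of genes only and does not compare the runs.

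Members, lists and tests were chosen with earlier results of these data known. Estimated counts were rounded to whole numbers, which touched 0.751% of values, filtered (edgeR filterByExpr, minimum count 10, total 15) to 12856 genes and fitted as 1 model of 6 groups with edgeR 4.0.16 in R 4.3.3 (TMM factors, quasi-likelihood test, 6 residual degrees of freedom). CPM printed are TMM-scaled. An exact permutation test of 2 against 2 libraries cannot go below p = 0.333, so none was used. On simulated data for high Cort against sham (12800 genes), 77% of 100 genes changed by 0.5 and 89% of 100 genes changed by 1 on the log2 scale were recovered, with 8 false among 174 calls. The simulation covers this comparison only and gives no rate of recovery for the members or for the other comparisons. Totals were 17674159 to 36249006 fragments. Genes named are members called in a comparison, the 2 of smallest p where none was called, the highest in each class, those nearest the member level, and up to 3 called genes of smallest p per list; other genes were named after their values were seen. A few genes are counted but not reported here. Alternatives were DESeq2 1.42.0, its size factors, no filter, a replicate block, marker scores as covariates, a fit of the 4 libraries compared, and each library left out.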

Additional observations from a re-analysis of the deposited data

Results flagged for a closer look

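The effects of high Cort and of ADX, each against the same sham libraries, differed in the tested contrast of the 2 groups for Grin1 and Grin2d, and this contrast equals high Cort against ADX. The difference was 0.17 on the log2 scale for Grin1 (adjusted p = 0.0205) and 0.22 for Grin2d (adjusted p = 0.0141), by edgeR's quasi-likelihood test, and every high Cort library was above every ADX library. With the thalamus score or the neuron score as a covariate, neither gene was called. Over the alternative fits, among them those with a library left out, the log2 difference ran from 0.0714 to 0.1744 for Grin1. For Grin2d it ran from 0.1447 to 0.2234. These fits do not separate the part of the thalamus and neuron markers from that of the groups.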

How the results depend on the processing

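Counts of called members moved as follows. In high Cort against ADX, 3 were called, against 5 by DESeq2, 0 with the thalamus score, 0 with the neuron score, 15 in a fit of the 4 libraries alone, and 0 to 0 with a library left out. In 1 h acute against sham, 15 were called, against 0 with either score, 0 in the 4-library fit, and 0 to 16 with a library left out. In 3 h acute against sham, 5 were called, against 3 with DESeq2's size factors, 3 without the filter, 13 by DESeq2, 2 with the replicate block, 0 with either score, and 0 to 8 with a library left out. Where 0 were called, DESeq2 called 1 in ADX against sham and 1 in 1 h acute against supplemented ADX, and the 4-library fit called 2 (Gabra4 and Gabrd) in 3 h acute against supplemented ADX. With a library left out these counts ran from 0 to 1 in high Cort and in ADX against sham, and from 0 to 10 in 1 h acute against supplemented ADX.

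With the neuron score, Gabra3 (0.11), Gabra4 (0.039), Gabre (-0.23), Grik1 (0.0039) and Grm7 (0.0298) changed sign in 1 h acute against sham. With the thalamus score, Gabra3 (0.01), Gabre (-0.10), Gabrq (-0.0056) and Grik1 (0.0711) did. Of the other member values, 382 kept direction and side of the threshold, 113 lost their call, 13 gained one. The cause was not tested.

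No pairing of libraries by replicate number was seen. Correlations of deviations ran from -0.366 to 0.143 over 15 pairs of groups, and 0 of 12 libraries were closest to their own number. With 2 libraries per group, these values cannot exclude a pairing. The replicate block gave 10 members instead of 15 in 1 h acute against sham. With 1 library left out, the lone library is assumed to vary like the other groups.

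Over all genes, calls ranged with a library left out from 23 to 121 (main 112) in high Cort against sham, 4 to 148 (30) in ADX against sham, 157 to 386 (742) in high Cort against ADX, 144 to 2125 (1641) in 1 h acute and 81 to 997 (1026) in 3 h acute against sham. With the other alternatives these counts ran from 46 to 152, 6 to 119, 61 to 1653, 1 to 1622 and 4 to 982. In supplemented ADX against ADX 4 genes were called (0 to 33 over all alternatives), in 1 h acute against supplemented ADX 6 (0 to 624), in 3 h acute against supplemented ADX 1 (0 to 154) and in 3 h against 1 h acute 3 (0 to 35). Gabrr1 rests on 232 fragments over all libraries, the fewest of any member.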

Other observations

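Within the 3 h acute pair, 35 of 41 members were lower in replicate 2, the library with the higher thalamus score (5.46, against 5.33 in replicate 1), and 6 were higher. Replicate 2 had Gabrb2 at 76.3 CPM against 95.3 in replicate 1, and Grik3 at 75.1 against 98.1 CPM. By the summed level of the thalamus markers the order of the pair is the other way, with 1428 CPM in replicate 2 and 1519 CPM in replicate 1. The summed pan-neuronal markers were at 7905 CPM in replicate 2 and 8311 CPM in replicate 1.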
